A study of Rattus norvegicus with 6 samples.

Results

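The neurotrophin system was described in 2 cultured cell types of the newborn rat through 7 of its genes: the ligand genes Bdnf, Ntf3 and Ntf4, the receptor genes Ngfr, Ntrk2 and Ntrk3, and Sort1. They are 7 of 18166 genes measured, and were chosen by name: a gene was taken where the platform annotation gives a probe set its symbol and no other, and each of the 7 had 1 such probe set. All 7 are accounted for below. The cells were SKPs (skin-derived precursors, sphere-forming cells from back skin) and NSCPs (Schwann cell precursors cultured from sciatic nerve), with 3 isolates of each and 1 array per isolate. All came from wild-type Sprague-Dawley newborn pups, with no transgene and no deletion in either group. As the labels' growth text was read, which covers both cultures in a single unbroken passage, SKPs were grown as spheres with EGF (20 ng/ml) and FGF2 (40 ng/ml), and NSCPs on a laminin and poly-D-lysine coat with neuregulin-1β (25 ng/ml) and forskolin (5 μM), which raises cAMP inside cells. Tissue, medium and growth form differ together between the groups and cannot be told apart, and how many pups went into an isolate was not stated in the labels. The series title concerns paracrine signals of such precursors during regrowth of the digit tip, and the comparison here asks which neurotrophin and receptor transcripts each cell type carried.

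Neurotrophins are secreted proteins that keep neurons alive and guide axons, and in peripheral nerve they also act on Schwann cells. They are made as precursors, cut by furin-like proteases into the mature form, and bind Trk receptors, which are tyrosine kinases: TrkB, from Ntrk2, for the products of Bdnf and Ntf4, and TrkC, from Ntrk3, for that of Ntf3. The p75 receptor, from Ngfr, binds all of them and their precursors, for which sortilin, from Sort1, is a co-receptor. Ngfr is a long-used marker of neural crest cells and of immature and repair Schwann cells.

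The labels were checked against defining markers. All 6 measured Schwann lineage markers were higher in NSCPs, with a mean level between 10.70 and 10.73 on the NSCP arrays and between 6.64 and 6.93 on the SKP arrays (log2 values, as all levels below), and Sox10, Erbb3 and S100b among them were above background in SKPs too. All 6 dermal mesenchyme markers, Pdgfra, Col1a1 and Dcn among them, were lower in NSCPs, with means of 5.83 to 6.25 against 11.84 to 11.94. All 6 leukocyte markers were lower in NSCPs, at 4.63 to 4.91 against 9.78 to 10.83, with Ptprc and Lyz2 within background in NSCPs and Cd68 just above it. Neuron markers had a mean of 5.14 to 5.40 in SKPs and 5.32 to 5.40 in NSCPs. Of the 9, 2 were higher and 2 lower in NSCPs, Snap25 was within background in NSCPs, and Elavl3 and Rbfox3 lay between 5.85 and 6.27 as group means. Tubb3, named after its values were seen, stood apart from the other neuron markers, at 8.33 ± 0.22 in NSCPs against 5.53 ± 0.19 (SD, n = 3 each), and was 6.96-fold higher. Keratinocyte markers (4 measured, Krt14, Krt1 and Krt10 first), endothelial and pericyte markers (3, Cdh5 and Tie1 first), melanocyte markers (6, Dct, Tyr and Tyrp1 first) and mast cell markers (4, Cpa3 and Tpsab1 first) had means between 4.25 and 5.88 on every array. Melanocyte markers went both ways: Dct (1.11) and Tyrp1 (1.40) were higher in NSCPs, and Mlana (-1.22) and Mitf (-2.43) lower, Mitf far above background at 10.24 ± 0.17 in SKPs and 7.80 ± 0.26 in NSCPs (SD, n = 3 each); Mlana and Mitf were named after their values were seen. Background is taken as 5.32, the 95th percentile over 227 genes of olfactory and vomeronasal receptors (each gene's mean over the 6 arrays), which these cells are not known to use.

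Among the 7 genes the 2 receptor genes Ngfr and Ntrk3 were higher in NSCPs, and the receptor gene Ntrk2 and the ligand gene Bdnf were lower. Ntrk3 was 11.7-fold and Ngfr 4.57-fold higher, and Ntrk2 was 3.63-fold and Bdnf 1.93-fold lower. Ntf3, Ntf4 and Sort1 did not pass the test. A gene is called higher or lower where limma's adjusted p, over all 18166 genes, was under 0.05. That holds for 4 of the 7 genes and for 43.7% of all genes, 25.2% higher and 18.6% lower, so the share of members called is near the background of this comparison and is not a result about them. The arrays of the groups did not overlap for the same 4 genes, against 56.6% of all genes. The median difference (NSCPs minus SKPs) was 0.22 over the 7 genes and 0.14 over all genes. In bulk RNA a lower value can come from fewer cells of a type or from less RNA per cell, and these cannot be told apart.

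**Figure D1:**
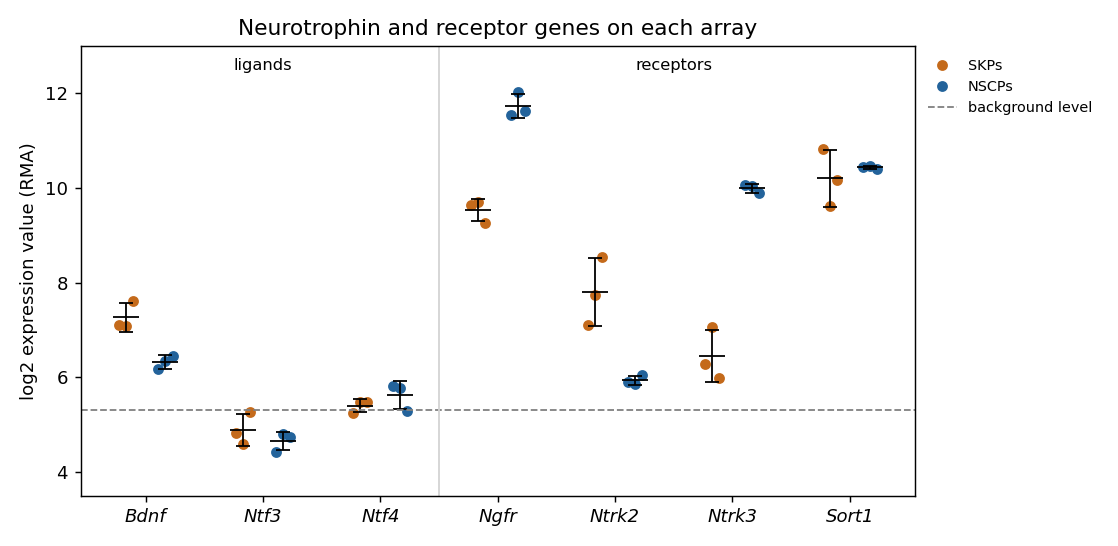
Log2 expression values (vertical axis) of the 7 genes on each of the 3 SKP and 3 NSCP arrays; horizontal bars show mean ± SD and the dashed line is the background level of 5.32. Ngfr and Ntrk3 lie higher on all NSCP arrays, Bdnf and Ntrk2 lower, Ntf3 lies below the line in both groups, and Sort1 is spread in SKPs and tight in NSCPs.

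Bdnf, which encodes brain-derived neurotrophic factor, the main ligand of TrkB, was at 7.11, 7.08 and 7.62 in SKP replicates 1, 2 and 3 and at 6.17, 6.34 and 6.46 in NSCP replicates 1, 2 and 3. Every NSCP array lay below every SKP array, and the lowest SKP array was above the highest NSCP array by 0.63. The means were 7.27 ± 0.30 and 6.32 ± 0.15 (SD, n = 3 each), both above background, with a difference of -0.95 (SE 0.17, 95% interval from -1.34 to -0.56, limma adjusted p = 0.00212). Bdnf was therefore the only one of the 3 ligand genes called in this comparison, and its transcript was measured in both cell types.

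Bdnf has several starts, each with its own promoter, and it is a textbook gene of CREB, the transcription factor that cAMP activates at the cAMP response element. RefSeq windows (GRCr8, 250 bases before to 50 after a start) were found for Bdnf (6 windows), Ntf3 (3), Ntf4 (1) and Sort1 (1), and 4 of the 7 members matched. They were searched on both strands for the full element TGACGTCA, for the variant TCACGTCA and for the core TGACG, which lies inside both. Of all 33469 windows 1.83% hold the full element, 0.4% the variant and 21.2% the core. None of the 11 windows of these genes, some of which overlap, holds the full element. The variant is in 1 of them, a Bdnf window, and the core in that window alone, where it is part of the variant. Bdnf was known as a gene of this element before the search, so the match is no discovery. The shares of all windows are no test of it. The 250 bases before that start (chr3:116637608-116637857, plus strand, GRCr8) are shown because forskolin, on that reading of the growth text, was in the medium of the cells where Bdnf was lower, with the variant in capitals, its first base 38 bases before the start.
Bdnf: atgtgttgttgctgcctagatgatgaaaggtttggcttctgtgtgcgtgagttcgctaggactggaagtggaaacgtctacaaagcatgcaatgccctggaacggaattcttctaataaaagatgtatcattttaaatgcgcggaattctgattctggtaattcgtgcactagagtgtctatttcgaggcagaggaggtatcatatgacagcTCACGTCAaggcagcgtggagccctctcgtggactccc
A match is a description of letters and no evidence of binding, and the probe set gives 1 value for the gene as a whole, so the starts in use cannot be read from these arrays.

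Ntf3, which encodes neurotrophin 3, the ligand of TrkC, was at 4.82, 4.60 and 5.26 in SKP replicates 1, 2 and 3 and at 4.43, 4.80 and 4.73 in NSCP replicates 1, 2 and 3. The groups overlapped, and all 6 values lay under the background level of 5.32, so no level above background was seen in either cell type. The difference of -0.24 did not pass (SE 0.19, 95% interval from -0.67 to 0.19, limma adjusted p = 0.336). NSCPs thus had the TrkC receptor transcript well above background and the transcript of its ligand within it.

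Ntf4, which encodes neurotrophin 4, a second ligand of TrkB, was at 5.25, 5.48 and 5.48 in SKPs and at 5.81, 5.78 and 5.28 in NSCPs, in replicate order. NSCP replicate 3 was inside the SKP range and the other NSCP arrays above it. The means of 5.40 ± 0.13 and 5.62 ± 0.30 (SD, n = 3 each) were just over the background level. With a wider set of 1344 receptor genes, chosen after seeing the data, that level is 5.50 and the SKP mean falls within it. The difference of 0.22 did not pass (SE 0.17, 95% interval from -0.16 to 0.60, limma adjusted p = 0.318) and was -0.02 with array weights, so it has no settled direction. The intervals of Ntf3 and Ntf4 exclude a 2-fold difference on the log2 values as measured, but near background such values understate a difference.

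Ngfr, which encodes the p75 receptor, was at 9.63, 9.71 and 9.27 in SKP replicates 1, 2 and 3 and at 11.55, 12.02 and 11.63 in NSCP replicates 1, 2 and 3. The lowest NSCP array was above the highest SKP array by 1.84. NSCPs had a mean of 11.73 ± 0.25 and SKPs of 9.54 ± 0.23 (SD, n = 3 each), a difference of 2.19 (SE 0.17, 95% interval from 1.80 to 2.59, limma adjusted p = 1.59e-05). Ngfr ranked 341 among 18166 genes in excess in NSCPs. The SKP level lay far above background, so Ngfr was not confined to the nerve-derived cells, and the Schwann lineage markers Sox10 (7.42 ± 0.22, SD, n = 3) and S100b (7.73 ± 0.26, SD, n = 3) were above background in SKPs as well. Their part in the Ngfr level of SKPs was not tested.

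Ntrk3, which encodes TrkC, had the largest difference of the 7 genes. It was at 6.29, 7.06 and 5.99 in SKP replicates 1, 2 and 3 and at 10.06, 10.04 and 9.89 in NSCP replicates 1, 2 and 3. All SKP arrays were above background, and a gap of 2.83 separated the groups. NSCPs had a mean of 9.997 ± 0.09 and SKPs of 6.44 ± 0.55 (SD, n = 3 each), a difference of 3.55 (SE 0.25, 95% interval from 2.99 to 4.11, limma adjusted p = 7.12e-06), and Ntrk3 ranked 95 among all genes in excess in NSCPs. TrkC is known both with its kinase and in shorter forms without it, and 1 probe set per gene cannot tell them apart.

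Ntrk2, which encodes TrkB, went the other way. It was at 7.11, 7.73 and 8.54 in SKP replicates 1, 2 and 3 and at 5.90, 5.86 and 6.04 in NSCP replicates 1, 2 and 3. The NSCP arrays were tight and a little over background, while the SKP arrays spread over 1.43, and the groups were separated by 1.07. NSCPs had a mean of 5.93 ± 0.09 and SKPs of 7.79 ± 0.72 (SD, n = 3 each), a difference of -1.86 (SE 0.31, 95% interval from -2.56 to -1.16, limma adjusted p = 0.00129). Ntrk2 also has a form without the kinase, known in glia and other cells, which these arrays do not separate. Leukocyte markers were lower in NSCPs along with Ntrk2 and Bdnf (values above), and so were dermal mesenchyme markers; the part of either cell type in these differences was not tested. In SKP replicates 1, 2 and 3 leukocyte markers averaged 10.83, 9.78 and 10.19, and dermal mesenchyme markers 11.93, 11.84 and 11.94.

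**Figure D2:**
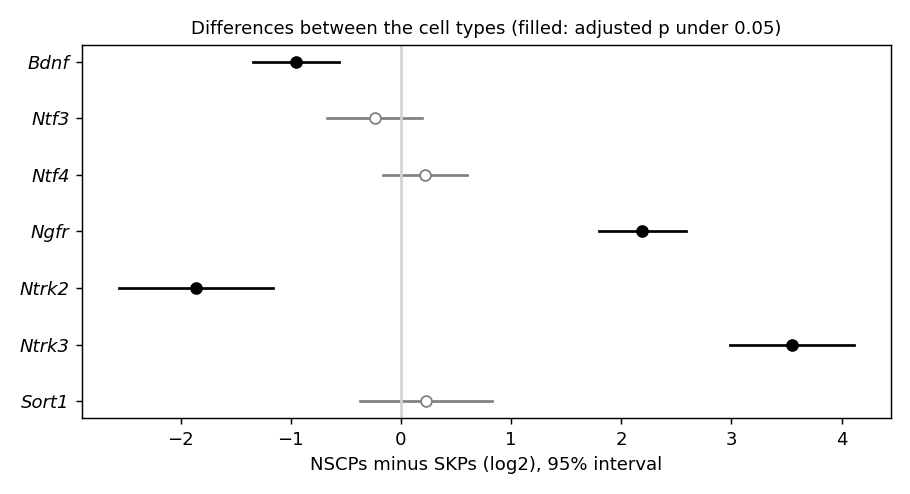
Difference between NSCPs and SKPs in log2 units (horizontal axis) for each of the 7 genes, with the 95% interval of the limma fit over 3 arrays a group; filled points passed an adjusted p of 0.05. The intervals of Ngfr (1.80 to 2.59) and Ntrk3 (2.99 to 4.11) lie to the right of 0, those of Bdnf and Ntrk2 to the left, and those of Ntf3, Ntf4 and Sort1 include 0.

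Sort1, which encodes sortilin, was at 10.82, 9.62 and 10.17 in SKP replicates 1, 2 and 3 and at 10.44, 10.47 and 10.40 in NSCP replicates 1, 2 and 3. All NSCP values lay inside the SKP range. The means were 10.43 ± 0.04 and 10.20 ± 0.60 (SD, n = 3 each), and the difference of 0.23 did not pass (SE 0.26, 95% interval from -0.37 to 0.83, limma adjusted p = 0.50). The result turned on single SKP arrays: without SKP replicate 1 the difference was 0.54 with an adjusted p of 0.0477, and without SKP replicate 2 it was -0.06 with an adjusted p of 0.828, the lowest and highest adjusted p of the alternatives run. SKP replicate 1, the highest for Sort1, was also the highest for the leukocyte markers, and SKP replicate 2 the lowest for both. Keratinocyte markers, at 5.45, 4.99 and 5.25 in SKP replicates 1, 2 and 3, had the same order. Schwann lineage markers were also highest in replicate 1, and dermal mesenchyme markers lowest in replicate 2. Neuron, endothelial and pericyte, and melanocyte markers were instead lowest in replicate 1. The part of any cell type in the Sort1 spread was not tested.

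The other genes of the sortilin family, whose receptors share the domain that binds precursors, did not move together. Sorcs2, which encodes a partner of p75 for the precursor of BDNF, was at 8.93, 8.96 and 8.65 in SKPs and at 9.74, 10.14 and 9.82 in NSCPs, in replicate order. It was 2.08-fold higher in NSCPs (difference 1.05, SE 0.15, limma adjusted p = 6.18e-04), with no overlap. Sorcs1 went the other way, at 10.23, 10.87 and 10.84 in SKPs and at 9.94, 9.62 and 9.87 in NSCPs, and was 1.79-fold lower (difference -0.84, SE 0.19, limma adjusted p = 0.00738). Sorl1 was lower too, by a difference of -0.80 (limma adjusted p = 0.0176), and its second probe set gave -1.77. Sorcs3 had group means of 5.28 in SKPs and 4.78 in NSCPs, both within background, and did not pass (-0.49, SE 0.48). Its SKP arrays were spread, at 6.39, 4.06 and 5.38 in replicate order, with replicates 1 and 3 above background.

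**Figure D3:**
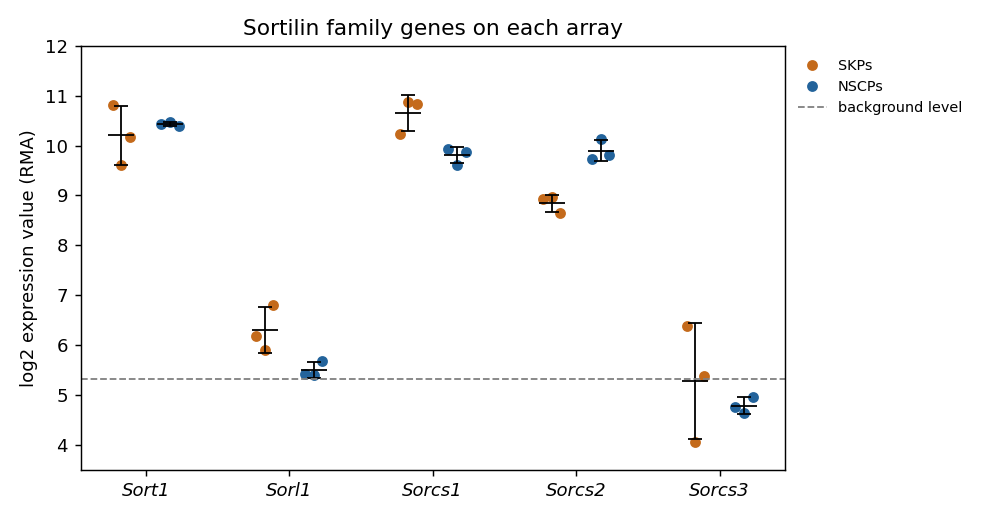
Log2 expression values of the 5 sortilin family genes on each array, drawn as for the members: points are arrays, bars mean ± SD (n = 3) and the dashed line the background level of 5.32. Sorcs2 is higher and Sorcs1 and Sorl1 are lower on all NSCP arrays, and Sort1 overlaps between the groups.

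Beyond the members, 4 lists of genes that act with them were counted, and each is set beside 43.7% of all genes called and the median difference of 0.14 over all genes. Of 19 measured partners of p75 and of the sortilin family, those above included, 6 were higher and 6 lower in NSCPs, with a median of -0.13. Of the 12 called genes 10 had a group mean above background. The rest, higher in NSCPs, were within background in both groups. Higher members were Mag, which encodes a myelin protein that signals through the Nogo receptor complex (2.94, with its SKP mean within background), Tnfrsf19, which encodes TROY, a receptor that can take the place of p75 in that complex (2.06), Sorcs2, and Rtn4, which encodes Nogo itself (0.66). Lower members were Maged1, which encodes the p75 adaptor NRAGE (-1.73), Sorcs1, Sorl1 and Traf6, which encodes an adaptor of p75 and of many immune receptors (-0.62). The subunits of the Nogo receptor complex Rtn4r (-0.28) and Lingo1 (-0.11) did not pass. The count of 12 called genes fell to 7, 4 higher and 3 lower, without NSCP replicate 2. Calls over all genes were 7513 in that fit, in place of 7945.

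Trk adaptors and effectors had 4 genes higher and 6 lower among 23 measured, with a median of -0.06. Plcg1, which encodes the phospholipase that docks at the C-terminal site of Trk receptors, was at 10.05, 10.31 and 10.21 in SKPs and at 7.95, 8.27 and 7.87 in NSCPs, in replicate order, and was 4.47-fold lower (limma adjusted p = 5.98e-06). The SHC adaptor genes, whose products dock at the other main site, differed among themselves: Shc1 was 3.08-fold lower and Shc3, known from neurons, 2.97-fold higher, while Shc2 (-0.06) and Shc4 (-0.45) did not pass. The adaptor gene Sh2b2 was 2.98-fold lower. Gab1 was higher (0.87) and Gab2 lower (-0.84), both adaptors of the path to PI3 kinase. The phosphatase gene Ptpn11 (0.69) and the small GTPase gene Rap1a (0.96) were higher. Kidins220, which encodes a scaffold that binds Trk receptors, did not pass (-0.06).

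Genes of precursor processing and of p75 cleavage had 2 members higher and 8 lower among 16 measured, with a median of -0.39. The largest differences were of the matrix metalloproteinase genes Mmp3 (-4.75) and Mmp9 (-3.76), whose enzymes can cut neurotrophin precursors outside cells; their NSCP means lay within background. Mmp9 was at 8.33, 8.66 and 10.08 in SKPs and at 5.07, 5.47 and 5.25 in NSCPs, in replicate order. Leukocyte and dermal mesenchyme markers were lower in NSCPs as well (values above). Among SKP arrays the leukocyte markers were highest in replicate 1, where Mmp9 was lowest. Mmp3 was at 10.05, 8.86 and 10.11 in SKP replicates 1, 2 and 3, lowest in replicate 2, where the leukocyte markers were lowest too. The part of either cell type in these values was not tested. Serpini1, which encodes the tissue plasminogen activator inhibitor neuroserpin, was lower (-1.46, SE 0.45). It was at 7.63, 5.72 and 7.59 in SKPs and at 5.43, 5.48 and 5.64 in NSCPs, in replicate order. SKP replicate 2 thus lay close to the NSCP arrays. The convertase gene Pcsk5 was lower too (-1.09). Furin, named after its values were seen, was 1.98-fold lower at 8.35 ± 0.19 against 9.34 ± 0.16 (SD, n = 3 each). Higher members were Plg, which encodes plasminogen (0.73, with its SKP mean within background), and Adam17, which encodes the sheddase of p75 (0.43). The gamma-secretase genes Ncstn (-0.11), Aph1a (-0.04) and Psenen (0.21) did not pass. Without SKP replicate 3 the count of 10 called genes was 6, 1 higher and 5 lower. Calls over all genes were 6341 in that fit, in place of 7945.

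Trk response genes, which neurotrophins and many other factors induce, went both ways, with 3 higher and 4 lower among 11 and a median of 0.03. Nr4a1, an immediate-early gene, was 6.92-fold higher in NSCPs, and Vgf (0.67, within background in both groups) and Spry2 (0.56) were higher. The immediate-early genes Fos (0.39) and Fosb (0.15) did not pass. Egr1 (-2.41), Egr2 (-1.91), the ERK phosphatase gene Dusp6 (-1.14) and Junb (-0.74) were lower. On the same reading the media differ in EGF, FGF2, neuregulin-1β and forskolin, which act on the same genes, and in the supplements B27 and N2. The part of each was not tested.

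**Figure D4:**
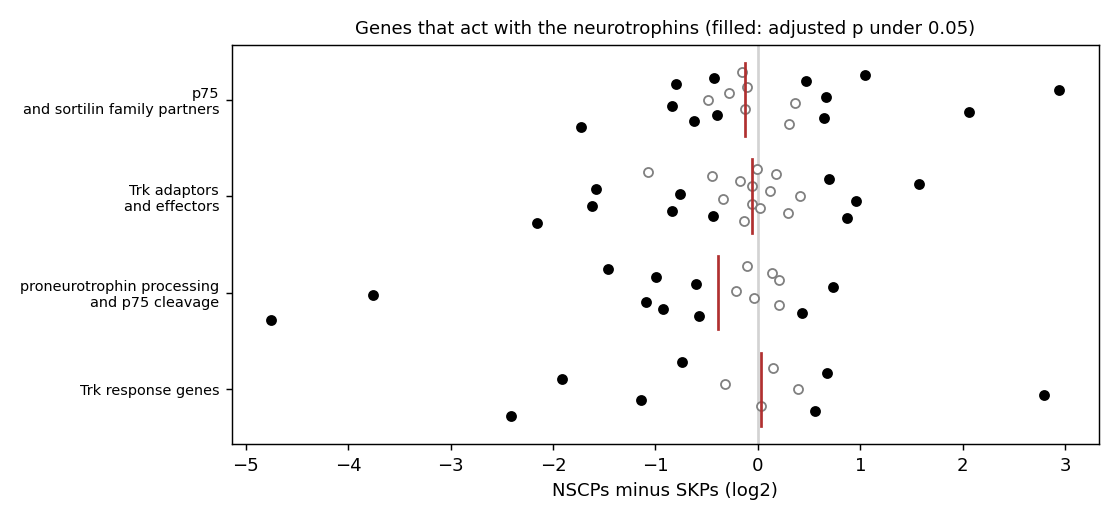
Difference between NSCPs and SKPs in log2 units (horizontal axis) for each measured gene of the 4 lists; filled points passed an adjusted p of 0.05 and the red line is the list's median. Filled points lie on both sides of 0 in each list, and the points farthest to the left are Mmp3 (-4.75) and Mmp9 (-3.76).

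The genes whose values ran most like each called member over the 6 arrays were found by Pearson's r among 13178 other genes above background in a group. For Ngfr they were Slc7a1 (r = 0.9992), Plxna3 and Polr2f (0.9991 each), and 161 genes had an r over 0.99. For Ntrk3 they were Smim5 (0.9992), Naca (0.9991) and Fkbp1a (0.9981), with 127 genes over 0.99. Bdnf ran most like Dkk3 (0.9914), Pabir1 (0.9913) and Ephx2 (0.9901), with 3 genes over 0.99. Ntrk2 ran most like Zfp597 (0.9885), F5 (0.9881) and Pank1 (0.9864), with 0 genes over 0.99. With 3 arrays a group these values mostly restate the gap between the groups and are given as a description. For Ntrk2, whose SKP arrays spread over 1.43, the values within SKPs enter as well.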

How the data were processed

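RNA of 3 SKP and 3 NSCP cultures was measured, 1 array each. The authors deposited 1 log2 value per probe set and array, made with oligo and RMA (background correction, quantile normalization, probe summary), per the submitters' processing notes; versions, array batches and scan dates were not stated there. Quantile normalization would hide a shift of all genes in a group. Of 36685 probe sets 18511 have 1 gene symbol, 575 several and 17599 none here; of the 18511, 18394 probe sets were matched to RefSeq by Entrez ID. The probe set with the highest mean was kept per gene (18166 genes). The values were used as deposited and fitted with limma 3.58.1 (lmFit, eBayes, 2-sided; R 4.3.3), with Benjamini-Hochberg adjustment over all genes; the script was tested on simulated data. Each difference is the NSCP mean minus the SKP mean, in log2 units. No detection calls were used, and the number of arrays limits the precision. Figures used matplotlib 3.10.9.

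The members and lists were chosen with earlier results of these data known. Some genes of the lists were not analysed here, and counts are over the measured ones. Named are the members, up to 4 called genes per list and direction with the largest difference and no overlap, the first 3 genes of each marker list where measured, and 3 genes most like each called member; genes named as not passing, Sorcs3 and Furin were named after their values were seen. Alternatives covered each array left out, the replicate number as a block, scaling, dim-gene filters, probe set choice, features adjusted over, priors, array weights and the threshold.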

Additional observations from a re-analysis of the deposited data

How the results depend on the processing

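Over 17 alternatives, of which the filter at the wider background was chosen after seeing the data, Ngfr (2.05 to 2.28), Ntrk3 (3.33 to 3.86), Bdnf (-1.07 to -0.78) and Ntrk2 (-2.20 to -1.49) kept their direction and their call, with adjusted p of at most 1.89e-04, 3.07e-04, 0.0109 and 0.0112. Ntf3 was not called in any of the 14 alternatives that kept it in the test (-0.41 to -0.05); the filters on dim genes removed it, and the filter at the median of all probe sets removed Ntf4. Ntf4 was not called in its 16 and had a difference of -0.02 with array weights. Sort1 lay between -0.06 and 0.54 with single arrays left out; the cause was not tested. Between 4 and 5 members were called. With an adjusted p under 0.01, 7 of the p75 and sortilin partners and 6 of the processing genes were called, as the stricter threshold entails. Over all genes 5419 passed at that threshold. With single arrays left out the partners called ran from 7 to 13, the processing genes from 6 to 9 and the Trk adaptors from 9 to 11. Calls over all genes ran from 6341 to 7513 there, with fewer samples in the fit. With array weights 16 Trk adaptors were called, and calls over all genes were 10426 in place of 7945. The cause was not tested. Same-numbered SKP and NSCP arrays deviated together only weakly (r = 0.037, 0.050 and 0.028 across genes), so the numbers were not taken to pair them, although each array correlated best with its own number, a hint from the data and not the design. With the replicate block 4 members were called and Ngfr and Ntrk2 differed by 2.19 and -1.86; over all genes 7681 passed in place of 7945, and the block changed no member's call.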

Other observations

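Sort1, Ntrk2 and Ntrk3 had larger SDs among SKP cultures than among NSCP cultures, a difference that was not tested. Their SDs over 3 SKP arrays were 0.60, 0.72 and 0.55, above those of 96.4%, 97.8% and 95.6% of the 12405 genes above background there, where the median SD was 0.13. Over the NSCP arrays the same genes had SDs of 0.04, 0.09 and 0.09, against a median of 0.16. The SKP arrays did not keep 1 order: replicate 1 was highest for Sort1, replicate 3 for Ntrk2 and replicate 2 for Ntrk3. Bdnf (0.30 against 0.15) and Ntf3 (0.34 against 0.20) also had larger SDs in SKPs than in NSCPs. Ntf4 had a smaller one (0.13 against 0.30), and Ngfr had SDs of 0.23 in SKPs and 0.25 in NSCPs.

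The opposite differences of the Trk genes made the log2 ratio of Ntrk3 to Ntrk2 shift between groups, a quantity chosen after its values were seen and not tested. It was -0.83, -0.67 and -2.55 in SKP replicates 1, 2 and 3 and 4.15, 4.18 and 3.85 in NSCP replicates 1, 2 and 3, a shift of 5.41. The ratio on an array also depends on the probes of each gene, so only its shift can be read.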
